A study of Mus musculus with 30 samples.

Results

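The libraries compared here came from natural killer (NK) cells that had received only prostaglandin E2 (PGE2) or only stimulation through the activating receptor NK1.1, and all peaks of the series were compared between them. Of 30 ATAC-seq libraries in the series, 7 belong to this comparison: 3 with PGE2 alone (replicates 2, 3 and 4) and 4 with NK1.1 stimulation alone (replicates 1 to 4). All were WT cells of C57BL/6J mice, taken from spleen and cultured for 5 days with a little IL-2 and with IL-15 bound to its receptor alpha chain. The PGE2 cells were kept with 100 ng/ml PGE2 for 5 h and were not stimulated; the NK1.1 cells stayed in medium without PGE2 for 5 h and were stimulated through NK1.1 for the last 4 h, after 1 h without stimulus. The members are all 38526 peaks of the deposited peak atlas, of which 38525 passed a filter on low counts (a mean of at least 10 over all libraries) and were tested.

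Other groups of the series serve as reference: 4 WT libraries at rest (neither signal), 4 WT libraries with both signals (1 h of PGE2, then 4 h of NK1.1 stimulation with PGE2 present), and, for the same comparison, 4 libraries with PGE2 alone and 4 with NK1.1 alone from cells of GzmbCre Ptger2-/- Ptger4 fl/fl mice (KO below). These KO mice lack EP2 in every cell, while deletion of EP4 rests on a Cre driven from the granzyme B gene and needs that gene to have been active in the cell. The WT mice carry no Cre. Values of 3 KO libraries at rest are given at single sites. Nothing in the labels ties the replicates of a group to separate mice or cultures; a p-value therefore reflects only how much these libraries vary, which may be technical.

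PGE2 is a lipid mediator that binds EP2 and EP4 on NK cells; both receptors couple to the stimulatory G protein Gs, which raises cyclic AMP and activates protein kinase A and the transcription factor CREB at the cAMP response element. NK1.1, encoded by Klrb1c, signals through the adaptor Fc receptor gamma chain and activates calcium and calcineurin, the transcription factors NFAT, NF-kB and AP-1, and the release of cytokines and lytic granules. ATAC-seq cuts open chromatin with a transposase, and the number of reads in a peak measures how accessible that site is. Values below are the authors' normalised read counts, read counts per peak divided by a factor for each library, and differences are on the log2(normalised count + 1) scale, PGE2 alone minus NK1.1 alone, so that a positive value means more accessible with PGE2. In a bulk assay, fewer cells with an open site and a less open site in each cell cannot be told apart.

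Libraries of a group were close to each other. Reads in peaks ranged from 13437382 to 16077697 with PGE2 alone and from 10575515 to 17802980 with NK1.1 alone, and promoter peaks took 56.9% to 59.3% of the reads with PGE2 alone and 56.9% to 57.6% with NK1.1 alone. Across peaks, correlations of log2 values were 0.981 to 0.984 within the PGE2 group, 0.979 to 0.988 within the NK1.1 group and 0.857 to 0.885 between the groups; peaks are not independent replicates. All 7 NK cell defining markers (Ncr1, Klrb1c, Eomes, Tbx21, Il2rb, Prf1 and Klrk1) had peaks, whereas Cd79a, Cd79b and Ms4a1 of B cells, Cd3g, Cd4, Cd8a, Cd8b1 and Themis of T cells, Lyz2, Mpo and Elane of myeloid cells, and Gata1, Hbb-bs and Hba-a1 of erythroid cells had none. Summed counts over the 41 peaks of the NK cell markers were 20898 to 22811 with PGE2 alone and 22763 to 26553 with NK1.1 alone. Other markers of the other cell types did have peaks. For B cell markers (4 of 8 genes, 10 peaks) the sums were 1184 to 1259 with PGE2 alone and 1500 to 1764 with NK1.1 alone. The corresponding ranges were 3624 to 4007 and 3830 to 4211 for T cell markers (5 of 10 genes, 11 peaks). They were 2840 to 3206 and 3192 to 3358 for myeloid markers (6 of 9, 11 peaks), and 1418 to 1545 and 1845 to 2112 for erythroid markers (3 of 6, 5 peaks). Summed counts for markers of type 2 and type 3 innate lymphoid cells (8 of 8 genes) went the other way. They were 6926 to 7146 with PGE2 alone and 5183 to 5651 with NK1.1 alone. The genes of this list were divided, with 11 of 29 peaks called higher with PGE2, 7 with NK1.1 and a median difference of -0.08. Kit had 8 of 10 peaks higher with PGE2 and 0 with NK1.1, and Il1rl1 had 0 and 4 of 8. The part of these marker differences in the results was not tested.

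Of 38525 peaks, 19740 (51.2%) differed between PGE2 alone and NK1.1 alone at an adjusted p under 0.05 in limma, and they split almost evenly, with 9794 peaks (25.4%) more accessible with PGE2 and 9946 (25.8%) more accessible with NK1.1. The sizes did not split evenly. The median difference was 0.65 among peaks higher with PGE2 and -0.89 among peaks higher with NK1.1, against 0.03 over all tested peaks. At least 2-fold differences were called at 2065 peaks (5.36%) on the PGE2 side and 4457 (11.6%) on the NK1.1 side, at least 4-fold differences at 69 (0.179%) and 1658 (4.3%), and at least 8-fold differences at 3 (0.00779%) and 432 (1.12%). All PGE2 libraries lay above all NK1.1 libraries at 8735 of the 9794 peaks (89.2%) and below them at 9351 of the 9946 (94.0%), where over all tested peaks the groups did not overlap at 10081 peaks (26.2%) in the first direction and 10402 (27.0%) in the second.

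**Figure D1:**
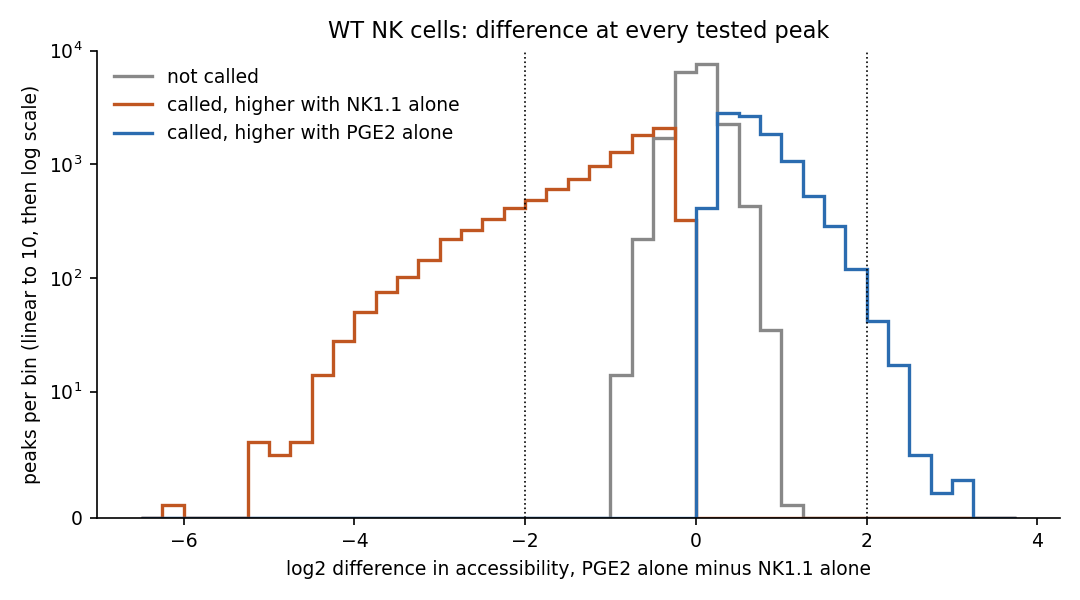
Log2 difference in accessibility, PGE2 alone minus NK1.1 alone, for the 38525 tested peaks in bins of 0.25, counted separately for peaks called in each direction and not called (vertical axis linear to 10, then log). The NK1.1 side reaches to -6.23 and holds 1658 peaks beyond 4-fold (dotted lines), the PGE2 side reaches to 3.24 and holds 69.

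The strongest sites were open with NK1.1 alone and nearly closed with PGE2 alone and at rest. At the 1658 peaks at least 4-fold higher with NK1.1, the median of the group means was 147.3 with NK1.1 alone, 21.4 with PGE2 alone and 19.5 at rest, and 1349 of them (81.4%) had a mean under 50 at rest. With both signals this median was 57.9. At the 69 peaks at least 4-fold higher with PGE2, the medians were 227.6 with PGE2 alone, 44.8 with NK1.1 alone and 108.1 at rest, and 19 of them (27.5%) had a mean under 50 at rest. Over all 9794 peaks higher with PGE2, the rest mean lay above both groups at 4027 (41.1%), between them at 3704 (37.8%, nearer PGE2) and 1373 (14%, nearer NK1.1), and below both at 690 (7.05%). Over the 9946 peaks higher with NK1.1, it lay below both at 4770 (48.0%), between them and nearer PGE2 at 4189 (42.1%), between them and nearer NK1.1 at 818 (8.22%), and above both at 169 (1.7%). For scale, PGE2 alone differed from rest at 5740 peaks (14.9%; 10.9% higher and 4.03% lower) and NK1.1 alone at 21692 (56.3%; 28.9% higher and 27.4% lower), 2 comparisons that share the rest libraries. The count of 1554 peaks lower with PGE2 than at rest was 826 without WT PGE2 replicate 3. On both sides, the rest mean on the log2 scale was in most peaks closer to PGE2 alone than to NK1.1 alone. Promoters had the smallest shares called of the 4 classes, with 17.6% of promoter peaks higher with PGE2 and 20.8% higher with NK1.1. They were 31.3% of tested peaks, 21.7% of the peaks higher with PGE2, 25.2% of those higher with NK1.1, and 2.9% and 5.37% of the 4-fold sets. Introns made up 47.8% and 44.3% and intergenic peaks 39.1% and 42.3% of the 4-fold sets on the PGE2 and NK1.1 side, against 33.0% and 27.2% of tested peaks.

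Promoter sequences of 6 genes are printed because their accessibility is described next and their letters can be set beside it. The 250 bases before the RefSeq start (GRCm38.p6) are given for 3 activation genes whose printed promoters were more accessible with NK1.1. These are Rcan1, a calcineurin inhibitor that calcineurin signalling itself induces, Tagap, a GTPase-activating protein of activated lymphocytes, and Tnf, the inflammatory cytokine. Nr4a2, an orphan nuclear receptor known as a CREB target, is also given. The last 2 are receptor genes whose printed promoters were more accessible with PGE2. They are Ccr2, a chemokine receptor for egress and recruitment, and Tigit, an inhibitory receptor. All 6 promoters were chosen after their values were seen. Capitals mark, on either strand, the cAMP response element TGACGTCA, the core TGACG of that element, the AP-1 site TGANTCA and the extended NFAT core TGGAAA; the core lies inside the full element, and TGGAAA holds the shorter NFAT core GGAAA.

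Rcan1, minus strand, chr16:92400079-92400328: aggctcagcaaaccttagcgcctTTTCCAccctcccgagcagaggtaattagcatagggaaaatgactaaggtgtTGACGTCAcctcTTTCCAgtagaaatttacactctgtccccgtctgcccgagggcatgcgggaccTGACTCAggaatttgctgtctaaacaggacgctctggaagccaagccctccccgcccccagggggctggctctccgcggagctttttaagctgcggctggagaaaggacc

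Tagap, plus strand, chr17:7925750-7925999: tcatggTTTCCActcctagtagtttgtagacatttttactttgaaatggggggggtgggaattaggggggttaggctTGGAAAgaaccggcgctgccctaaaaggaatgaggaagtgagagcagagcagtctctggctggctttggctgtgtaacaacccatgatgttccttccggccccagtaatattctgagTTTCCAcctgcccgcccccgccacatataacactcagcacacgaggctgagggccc

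Tnf, minus strand, chr17:35202008-35202257: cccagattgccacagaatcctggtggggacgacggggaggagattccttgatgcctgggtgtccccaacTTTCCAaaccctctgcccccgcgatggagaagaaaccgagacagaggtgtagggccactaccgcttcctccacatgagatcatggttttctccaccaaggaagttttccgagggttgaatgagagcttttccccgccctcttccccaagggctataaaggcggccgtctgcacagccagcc

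Nr4a2, minus strand, chr2:57124004-57124253: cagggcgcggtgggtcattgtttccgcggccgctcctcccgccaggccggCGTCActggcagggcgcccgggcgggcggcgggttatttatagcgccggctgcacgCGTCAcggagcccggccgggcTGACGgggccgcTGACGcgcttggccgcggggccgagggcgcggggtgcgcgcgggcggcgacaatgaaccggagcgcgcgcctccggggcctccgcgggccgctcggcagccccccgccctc

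Ccr2, plus strand, chr9:124101933-124102182: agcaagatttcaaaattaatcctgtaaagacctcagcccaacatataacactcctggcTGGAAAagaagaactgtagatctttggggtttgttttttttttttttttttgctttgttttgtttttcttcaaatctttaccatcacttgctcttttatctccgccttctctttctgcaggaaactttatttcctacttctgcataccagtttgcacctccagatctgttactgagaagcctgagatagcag

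Tigit, minus strand, chr16:43664185-43664434: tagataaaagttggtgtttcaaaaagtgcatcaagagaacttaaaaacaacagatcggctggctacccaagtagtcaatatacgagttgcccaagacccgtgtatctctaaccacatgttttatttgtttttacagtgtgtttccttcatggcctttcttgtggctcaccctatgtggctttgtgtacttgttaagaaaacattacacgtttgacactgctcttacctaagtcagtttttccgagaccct

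Rcan1 has 2 RefSeq promoter windows in tested peaks, and only the one printed, which lies in an intron of the longer transcript, differed. Its counts were 15.7, 18.3 and 30.1 with PGE2 alone and 171, 156, 224 and 233 with NK1.1 alone, a difference of -3.17 (SE 0.29, adjusted p = 1.23e-11 in limma). This window holds a TGACGTCA, a TGACTCA and a pair of TGGAAA matches. The upstream Rcan1 promoter differed by 0.08 (adjusted p = 0.531). Tagap had 167, 162 and 211 with PGE2 alone and 1435, 1266, 1308 and 1194 with NK1.1 alone (-2.85, SE 0.12). Tnf had 82.5, 78.6 and 78.0 against 540, 365, 365 and 316 (-2.27, SE 0.18). Nr4a2, whose window holds 4 matches to TGACG, had 390, 382 and 348 against 988, 848, 966 and 960 (-1.33, SE 0.10). At all 4 promoters, every NK1.1 library was above every PGE2 library, and the PGE2 libraries did not pass the test against rest (differences of 0.28, -0.13, -0.23 and 0.00 for Rcan1, Tagap, Tnf and Nr4a2). Ccr2 had 790, 732 and 920 with PGE2 alone and 404, 361, 293 and 308 with NK1.1 alone (1.26, SE 0.12), with no overlap and a rest mean of 1006. The Tigit promoter had 1793, 1810 and 1767 against 1039, 1083, 985 and 1042 (0.79, SE 0.08), with no overlap and a rest mean of 995. Over the whole locus, 2 of 9 Tigit peaks were higher with PGE2 and 3 with NK1.1, with a median difference of -0.04.

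Motifs were also counted over all promoters. Of 32817 RefSeq windows of 300 bases (250 before to 50 after a start), 12316 lay inside a tested peak; windows of alternative starts of a gene overlap, so that they are not independent. The AP-1 site stood in 4.75% of these 12316 windows, in 25% (11 of 44) of those in peaks at least 4-fold higher with NK1.1, in 15.5% (42 of 271) at 2-fold, and in 5.77% (3 of 52) of those at least 2-fold higher with PGE2. Over all called windows the AP-1 shares were 5.85% of those higher with PGE2 and 6.53% of those higher with NK1.1, and those of the EGR site 41.0% and 41.8%. TGGAAA stood in 15.5% of all windows in peaks, 36.4% of the 4-fold and 25.5% of the 2-fold NK1.1 windows, and 21.2% of the 2-fold PGE2 windows. The EGR site GTGGGNG stood in 38.9%, 61.4%, 49.8% and 32.7%, in the same order. The RUNX site TGTGGTT stood in 4.98% of all windows called higher with PGE2 and 4.84% of those higher with NK1.1, and in 7.69% and 8.12% of the 2-fold sets; the NFAT core GGAAA stood in 65.4% and 66.1% of the 2-fold sets. The cAMP response element TGACGTCA was rare: it stood in 3.4% of all windows in peaks, 4.23% of the 2480 windows called higher with NK1.1, 1.57% of the 2170 called higher with PGE2 and 0 of the 52 at least 2-fold higher with PGE2. Its core TGACG stood in 33.6%, 36.8%, 27.5% and 19.2%, in the same order. In the 2-fold and 4-fold NK1.1 windows the shares were 2.95% and 2.27% for TGACGTCA, and 25.8% and 9.09% for TGACG. The ETS core CCGGAAG was in 19.3% of all windows in peaks, 5.9% of the 2-fold NK1.1 and 1.92% of the 2-fold PGE2 windows. Only 2 windows lay in peaks at least 4-fold higher with PGE2, so the 2-fold sets were added after the data were seen. A match is a description of the letters, not a binding site, and no match says only that these letters are not in this window; distal peaks, most of the differing sites, were not searched.

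The largest differences toward PGE2 lay away from promoters. The leading peak was assigned to Zfp169, a zinc-finger protein gene, at chr13:48515737-48516646, and had 289, 311 and 401 with PGE2 alone and 19.2, 39.3, 47.6 and 37.3 with NK1.1 alone, a difference of 3.24 (SE 0.24, adjusted p = 3.79e-14 in limma). Rest lay between, at a mean of 90 ± 25.8 (SD, n = 4), so that this site was above rest with PGE2 (1.91) and below it with NK1.1 (-1.33). An intron peak of Prim2, a DNA primase subunit, at chr1:33578273-33579139 had 464, 537 and 500 against 62.7, 70.5, 63.4 and 36.4 (3.12, SE 0.18), again with rest between, at 126 ± 13.9. The 10 largest were picked only among peaks whose libraries did not overlap, so the separation of the libraries at these sites was set by that choice. The other peaks of the 10 largest were an intron of Rnf125, an E3 ubiquitin ligase (3.07), a site by Uchl5, a proteasomal deubiquitinase (2.94), one by E230016M11Rik (2.80), an intron of Csf2rb2, a cytokine receptor beta subunit (2.64), a site by Nrp2, a semaphorin co-receptor (2.58), an intron of Emb, the cell adhesion protein embigin (2.54), a site by Grhl3, an epithelial transcription factor (2.51), and an intron of Tbc1d4, which regulates glucose transporter traffic (2.50). None of the 10 was a promoter, and the gene of an intergenic peak is only the authors' assignment.

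The largest differences toward NK1.1 included sites at the chemokine genes Xcl1 and Ccl1, at regulators of signalling and at genes of other functions. At the 3147-base peak over exons of Xcl1, a chemokine by which NK cells attract dendritic cells, at chr1:164928927-164932073, the counts were 29.2, 43.0 and 28.4 with PGE2 alone and 3597, 2862, 1979 and 2041 with NK1.1 alone, a difference of -6.23 (SE 0.31, adjusted p = 5.59e-19 in limma). The PGE2 libraries stayed at the rest mean of 43.0 ± 13.5 (SD, n = 4). An exon peak of Crtam, an adhesion receptor of activated cytotoxic cells, at chr9:40980872-40982298 had 17.7, 13.7 and 13.3 against 693, 478, 630 and 600 (-5.24, SE 0.20). Ccl1, a chemokine whose reads could be shared with relatives of its family, had 76.2, 72.2 and 71.8 against 4374, 3044, 2135 and 2069 at chr11:82173321-82177520 (-5.22, SE 0.24). These sites, too, were picked only among peaks whose libraries did not overlap. PGE2 alone did not pass the test against rest at any of them. Further sites among the 10 largest were assigned to Eea1, an endosome tether (-5.06), Rgs1, a regulator of G protein signalling (-5.04), Sema7a, a membrane semaphorin (-4.89), Rgs8 (-4.81), 4930469K13Rik (-4.77) and Dusp22, a phosphatase (-4.70).

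**Figure D2:**
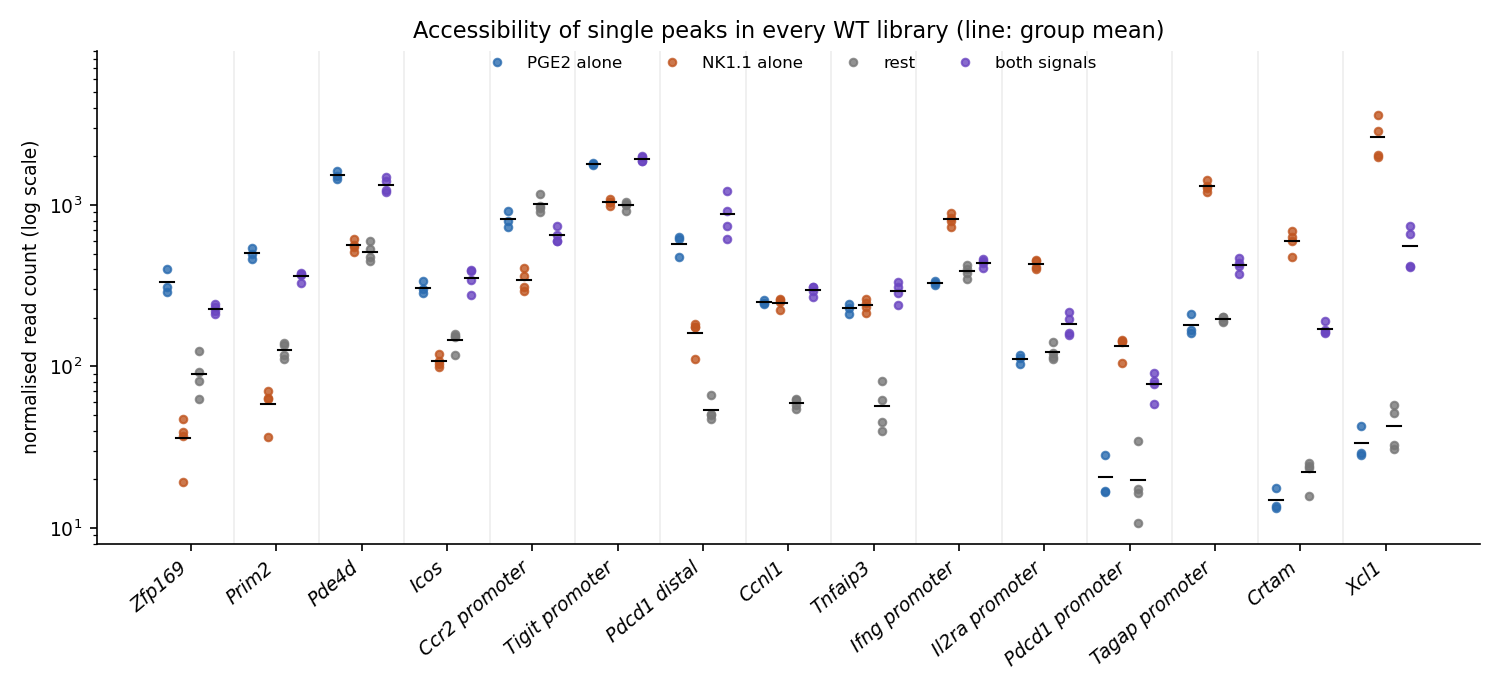
Normalised read count (log scale) of 15 peaks in every WT library: 3 with PGE2 alone, 4 with NK1.1 alone, 4 at rest and 4 with both signals; lines are group means. From left to right the peaks pass from those higher with PGE2 (Zfp169, Prim2) over those at the same level with either signal (Ccnl1, Tnfaip3) to those higher with NK1.1 (Crtam, Xcl1).

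Gene lists show which functions stood on which side, beside 25.4% of all tested peaks higher with PGE2 and 25.8% higher with NK1.1. Among the 12 functional lists, NK cytokine and chemokine genes leaned most to NK1.1: of 111 peaks, 72 (64.9%) were higher with NK1.1 and 16 (14.4%) with PGE2, with a median difference of -1.11. Genes of NFAT, EGR, NF-kB and AP-1 activation followed, with 114 (57.6%) and 29 (14.6%) of 198 peaks and a median of -0.5. IL-2, IL-15 and STAT genes had 68 (45.9%) and 42 (28.4%) of 148 peaks, cytotoxic granule genes 34 (45.9%) and 18 (24.3%) of 74, with medians of -0.19 and -0.18. Housekeeping genes, meant as a reference, also had more peaks higher with NK1.1, 16 (40%) against 6 (15%) of 40, but a median of -0.09. The genes of the cAMP and CREB list were divided: 60 (29.9%) of 201 peaks were higher with PGE2 and 61 (30.3%) with NK1.1, with a median of 0.04. Among the 12 functional lists, the one with the largest share on the PGE2 side was that of chemokine receptors and migration genes, with 36 (37.1%) of 97 peaks higher with PGE2 and 29 (29.9%) with NK1.1, median 0.09. Prostanoid, adenosine and Gs pathway genes had 28 (32.6%) and 25 (29.1%) of 86, NK and innate lymphoid transcription factors 108 (32.1%) and 106 (31.5%) of 336, NK receptors 27 (25.5%) and 23 (21.7%) of 106, and inhibitory checkpoint receptors 16 (24.6%) and 19 (29.2%) of 65, all near the shares over all peaks. TGF-beta and tissue residency genes had 30 (28.8%) and 37 (35.6%) of 104, and glycolysis and mTOR genes 15 (20%) and 21 (28.0%) of 75.

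**Figure D3:**
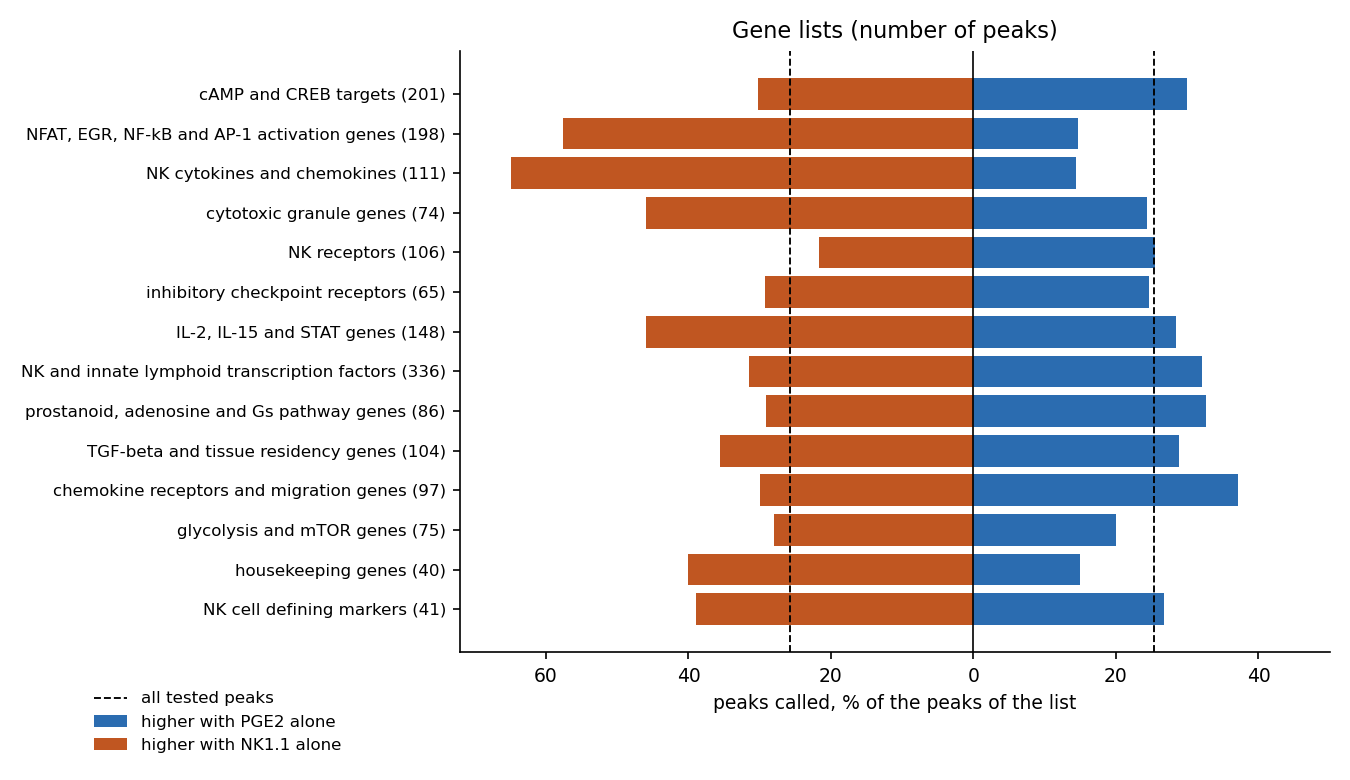
Share of the peaks of each gene list called higher with PGE2 alone (right) or with NK1.1 alone (left); dashed lines mark the shares over all tested peaks, 25.4% and 25.8%. Cytokine and activation genes reach 64.9% and 57.6% on the NK1.1 side, while the cAMP list has 29.9% and 30.3%.

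Within the cAMP list, genes stood on both sides. Pde4d, a cAMP phosphodiesterase, had 13 of 23 peaks higher with PGE2 and 1 higher with NK1.1. Its leading intron peak at chr13:109821677-109823366 had 1441, 1629 and 1502 with PGE2 alone and 550, 568, 514 and 613 with NK1.1 alone, at a rest mean of 514 (1.44, SE 0.09, adjusted p = 1.11e-15 in limma), so the NK1.1 libraries stayed near rest. A smaller Pde4d intron peak, at chr13:109842788-109843438, had 125, 128 and 128 against 17.2, 32.5, 26.2 and 22.6 (2.36, SE 0.29). Pde4b, the other main phosphodiesterase of lymphocytes, had 8 of 18 peaks higher with PGE2 and 1 with NK1.1, and Pde7a 5 and 0 of 7. Pde4a and Pde8a, of the same class of enzymes, leaned the other way, with 1 and 3 of 7 and 1 and 2 of 3. Crtc1 and Crtc3, coactivators of CREB, had 3 of 3 and 5 of 12 peaks higher with PGE2 and none higher with NK1.1, and Prkacb, a catalytic subunit of protein kinase A, 3 and 0 of 5. Rgs2, a regulator of G protein signalling, had 4 and 0 of 8, and Rgs1, of the same family, 1 and 12 of 16. Sik1, a kinase that CREB induces and that holds its coactivators back, was split, with 2 of 11 peaks higher with PGE2 and 5 with NK1.1. Its relatives Sik3 and Sik2 had 2 and 11 of 18, and 1 and 2 of 6. Of the immediate-early genes, Fos had 2 and 4 of 9, Fosl2 2 and 1 of 5, and Dusp1 1 and 1 of 4. Of the nuclear receptors, Nr4a1 had 0 and 5 of 6 peaks, Nr4a2 0 and 4 of 4, and Nr4a3 2 and 5 of 9. The strongest difference at Nr4a1 was an intergenic peak at chr15:101275050-101277425, with 38.6, 28.3 and 31.0 against 598, 432, 454 and 377 (-3.78, SE 0.22). Crem, the gene of the cAMP-inducible repressor, had 1 of 2 peaks called, at 184, 168 and 124 against 142, 98.9, 129 and 123 (0.35, adjusted p = 0.0264); its groups overlapped, and the call was lost without PGE2 replicate 2 or 3 or NK1.1 replicate 2 (0.24, 0.30 and 0.25), or when only the groups compared were fitted (0.35).

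Receptors of the pathway were themselves on both sides. The promoter of Ptger2, which encodes EP2, at chr14:44988181-44990885 had 604, 601 and 609 with PGE2 alone and 1082, 941, 1109 and 982 with NK1.1 alone (-0.76, SE 0.12, adjusted p = 7.31e-07 in limma), without overlap and with rest at 630. Ptger4, which encodes EP4, had 1 of 6 peaks higher with PGE2, an intron peak at 93.9, 82.3 and 107 against 47.6, 56.9, 45.2 and 41.7 (0.97, SE 0.21), and 2 higher with NK1.1. Adora2a, the Gs-coupled adenosine receptor, had 0 and 2 of 3, and Entpd1, which makes the adenosine precursor AMP, 2 and 5 of 9. Adcy7, an adenylyl cyclase, had 6 and 2 of 9.

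Effector genes stood on both sides, with the cytokine and lytic granule lists having more peaks higher with NK1.1. Ifng, the main NK cytokine, had 12 of 18 peaks higher with NK1.1 and 2 with PGE2. Its promoter at chr10:118440476-118441519 had 317, 326 and 337 with PGE2 alone and 897, 729, 824 and 797 with NK1.1 alone (-1.31, SE 0.10), and the PGE2 libraries were all below the lowest rest library (349), without passing the test against rest (-0.25, adjusted p = 0.104). The largest difference at the locus was a peak 6.8 kb on, with 14.6, 10.1 and 19.5 against 328, 249, 213 and 219 (-4.03, SE 0.31). Ccl3 and Ccl4, chemokines of neighbouring and similar genes whose reads may be shared, had all of their 5 and 3 peaks higher with NK1.1. At the Ccl3 promoter the PGE2 libraries (611, 526 and 534) were below the rest mean of 1227 as well as below NK1.1 (4922, 4018, 3820 and 3930; difference -2.90, SE 0.13). Among cytokines, Fasl, the death ligand FasL, had 8 of 21 peaks higher with each signal, Il10 1 of 3 with each, and Il16 2 of 4 with PGE2 and none with NK1.1. Tnfsf11, the ligand RANKL, had 2 of 3 peaks higher with PGE2 and none with NK1.1; its peak at chr14:78330109-78331161 had 141, 161 and 179 against 39.5, 50.2, 45.2 and 30.4, with rest at 54.1 (1.95, SE 0.22). Of the lytic granule genes, Prf1 (perforin) had all 5 peaks and Gzmb (granzyme B, of a family with similar copies) 7 of 9 peaks higher with NK1.1 and none with PGE2. Both signals stood above rest at the Gzmb promoter, with 898, 759 and 836 with PGE2 alone, 1544, 1373, 1348 and 1393 with NK1.1 alone and a rest mean of 509 (difference -0.77, SE 0.09). Other granule genes had more peaks higher with PGE2: Lyst, a regulator of granule trafficking, had 6 of 8 against 1 with NK1.1, Ctsc, the protease that activates granzymes, 3 of 5 against 1, Gzmk (granzyme K) 3 of 8 against 0, and Lamp2 1 of 3 against 0. Over the whole granule list 24.3% of peaks were higher with PGE2, near the 25.4% of all tested peaks. Gzma (granzyme A) also had 2 of 3 peaks higher with PGE2 and none with NK1.1, with its promoter at 284, 228 and 231 against 132, 115, 122 and 143 (0.94, SE 0.16).

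Activation receptors and transcription factors had the same one-sided loci. Tnfrsf9 (4-1BB, a costimulatory receptor) and Il2ra (the high-affinity IL-2 receptor chain) had all 5 of their peaks higher with NK1.1, among them the Tnfrsf9 exon peak at chr4:150944646-150947517 with 45.9, 64.0 and 39.9 against 845, 634, 737 and 747 (-3.89, SE 0.17) and the Il2ra promoter with 117, 113 and 104 against 456, 413, 401 and 449 (-1.94, SE 0.14). Irf4, a factor that NFAT and NF-kB induce, had 8 of 10 and Egr2, an early calcium-responsive factor, 5 of 5 peaks higher with NK1.1 and none with PGE2. Tbx21 (T-bet), which maintains NK effector identity, had 7 and 0 of 10. Toward PGE2 stood Lef1, a WNT-responsive factor of less mature lymphocytes, with 9 of 11 peaks higher with PGE2 and 1 with NK1.1, and Tcf7 (TCF-1), its relative, with 5 and 1 of 9; the Lef1 intron peak at chr3:131117437-131118560 had 707, 544 and 629 against 277, 309, 294 and 247 (1.15, SE 0.09). Rest was at 559, so that at this Lef1 peak the NK1.1 libraries stood apart (-0.99 from rest) and the PGE2 libraries did not pass the test against rest (0.16, adjusted p = 0.309). Kit, the stem cell factor receptor found on immature NK cells and innate lymphoid cells, had 8 of 10 peaks higher with PGE2 and none with NK1.1, among them 3 that lie 205.1 to 229.6 kb from its promoter; one of these, at chr5:75791392-75792607, had 622, 622 and 604 against 163, 175, 193 and 188 (1.77, SE 0.11). Ccr2 had 3 and 0 of 3, and Klrb1c, the NK1.1 gene itself, 5 and 0 of 7. S1pr1, the receptor for exit from lymphoid tissue, had 5 and 0 of 15 with 10 not called, beside 25.4% of all tested peaks higher with PGE2. The whole list of NK and innate lymphoid transcription factors was divided, with 32.1% of peaks higher with PGE2 and 31.5% with NK1.1.

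The leading peak of each list on each side, by smallest p, gives the range of functions on both sides, but not the side of its whole gene. Higher with PGE2 were sites at Batf, an AP-1 factor (326, 328 and 361 against 139, 133, 106 and 115, difference 1.45), Stat4, which carries IL-12 signals (493, 540 and 555 against 214, 210, 155 and 207, difference 1.43), and Klrb1c, of a family with similar copies (581, 558 and 484 against 162, 228, 155 and 150, difference 1.65). Lyst, needed for granule exocytosis, had 473, 442 and 472 against 205, 160, 184 and 162 (1.38), and Rptor, a subunit of mTORC1, 341, 329 and 300 against 121, 129, 116 and 107 (1.44). None of these groups overlapped. Over the whole loci, Batf had 1 of 5 peaks higher with PGE2 and 2 with NK1.1, Stat4 4 and 3 of 11, and Rptor 7 and 3 of 14. At Batf, Lyst and Klrb1c the PGE2 libraries were above rest and the NK1.1 libraries below it, by 0.47, 0.57 and 0.50 and by -0.99, -0.81 and -1.15; at Rptor the PGE2 libraries alone stood apart (1.28 from rest). Further lists were led by sites at Tgfbr1, a TGF-beta receptor (1.53, at 114 to 152 against 35.6 to 54.7), and Akap13, an anchor of protein kinase A (0.58). Higher with NK1.1 were sites at Rgs16, a regulator of G protein signalling (43.8, 59.4 and 62.0 against 1492, 1193, 1135 and 1181, difference -4.49), Tox, a factor of lymphocyte exhaustion and NK development (38.6, 32.9 and 27.5 against 352, 336, 345 and 387, difference -3.40), and Bach2, a repressor of effector genes (32.4, 36.6 and 46.1 against 376, 332, 385 and 373, difference -3.24). The PGE2 libraries did not pass the test against rest at any of these 3 sites. Over the whole loci, Tox had 4 of 16 peaks higher with PGE2 and 3 with NK1.1, Bach2 9 and 17 of 36, and Rgs16 0 and 2 of 2. The others were Klrc2, of a family with similar copies (-2.99), another site in Akap13 (-2.89), Cx3cr1, a chemokine receptor of mature NK cells (-2.18), Cish, a feedback inhibitor of IL-15 signals (-1.82), Serpinb9, a granzyme B inhibitor with similar copies (-1.55), and Pfkfb3, an activator of glycolysis (-1.52).

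A few genes were one-sided at every peak. Of 1972 genes with at least 5 tested peaks, 13 had all peaks called higher with PGE2 and 27 all higher with NK1.1, while 1212 had calls in both directions. Those with the most peaks on the PGE2 side were Cdk19, a kinase of the Mediator complex (10 of 10), Gm33104 (9), Icos, a costimulatory receptor (7), Zfyve28 (7) and AW112010 (6). At the Icos peak of chr1:61045886-61046916 the counts were 339, 300 and 285 with PGE2 alone and 99.2, 108, 120 and 104 with NK1.1 alone (1.5, SE 0.17); all libraries with PGE2 were above the rest mean of 146. Icos was on the list of activation genes, and its 7 peaks are part of the 29 of that list higher with PGE2. On the NK1.1 side they were Ccl1 (11 of 11), Mir6390 (7), 1700064M15Rik (6), Capg, an actin-capping protein (6), and Kdm2b, a histone demethylase (6).

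Other genes were pulled apart, with some sites open under one signal and others under the other. At least 2 peaks each way beyond 2-fold were found at 46 genes, led by Gm20388, Dad1, Gm27162, Atp10a and Fyn. Fyn, a Src-family kinase, had 16 of 32 peaks higher with PGE2 and 8 with NK1.1; one intron peak had 1065, 996 and 1006 against 427, 409, 404 and 408 (1.31, SE 0.11) and another 88.7, 84.1 and 67.4 against 380, 336, 410 and 388 (-2.23, SE 0.17). Dad1, a subunit of the oligosaccharyl transferase, had 16 and 6 of 42. At Pdcd1 (the gene of PD-1, an inhibitory receptor), the sites other than the promoter were chosen after their values were seen. The promoter at chr1:94053227-94054175 had 16.7, 28.3 and 16.8 with PGE2 alone and 144, 104, 145 and 142 with NK1.1 alone (-2.67, SE 0.26), and PGE2 stayed at the rest mean of 19.9. An intergenic peak 21.2 kb away, at chr1:94074313-94075538, had 636, 614 and 474 against 176, 175, 111 and 182 (1.84, SE 0.24), with rest at 53.6, so that both signals stood above rest there and PGE2 further. At the promoter and at this distal site of the same gene the groups were thus ordered in opposite ways without overlap. Cxcr4, the chemokine receptor for bone marrow retention, had 10 of 17 peaks higher with PGE2 and 4 with NK1.1: its promoter differed by 0.67 and a peak 9.3 kb away by -2.47. Gata3, a factor of innate lymphoid cells, had 6 and 6 of 19, from -3.09 to 1.17. In Tcf7, an intron peak at 80.4, 116 and 116 against 266, 216, 275 and 230 (-1.25, SE 0.19) stood among 5 peaks higher with PGE2. Of the other checkpoint genes, Havcr2 (TIM-3) had 0 and 5 of 6 peaks and its promoter differed by -1.65, the Lag3 promoter differed by -1.47, and Ctla4 had 3 and 0 of 5 peaks, up to 2.09.

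**Figure D4:**
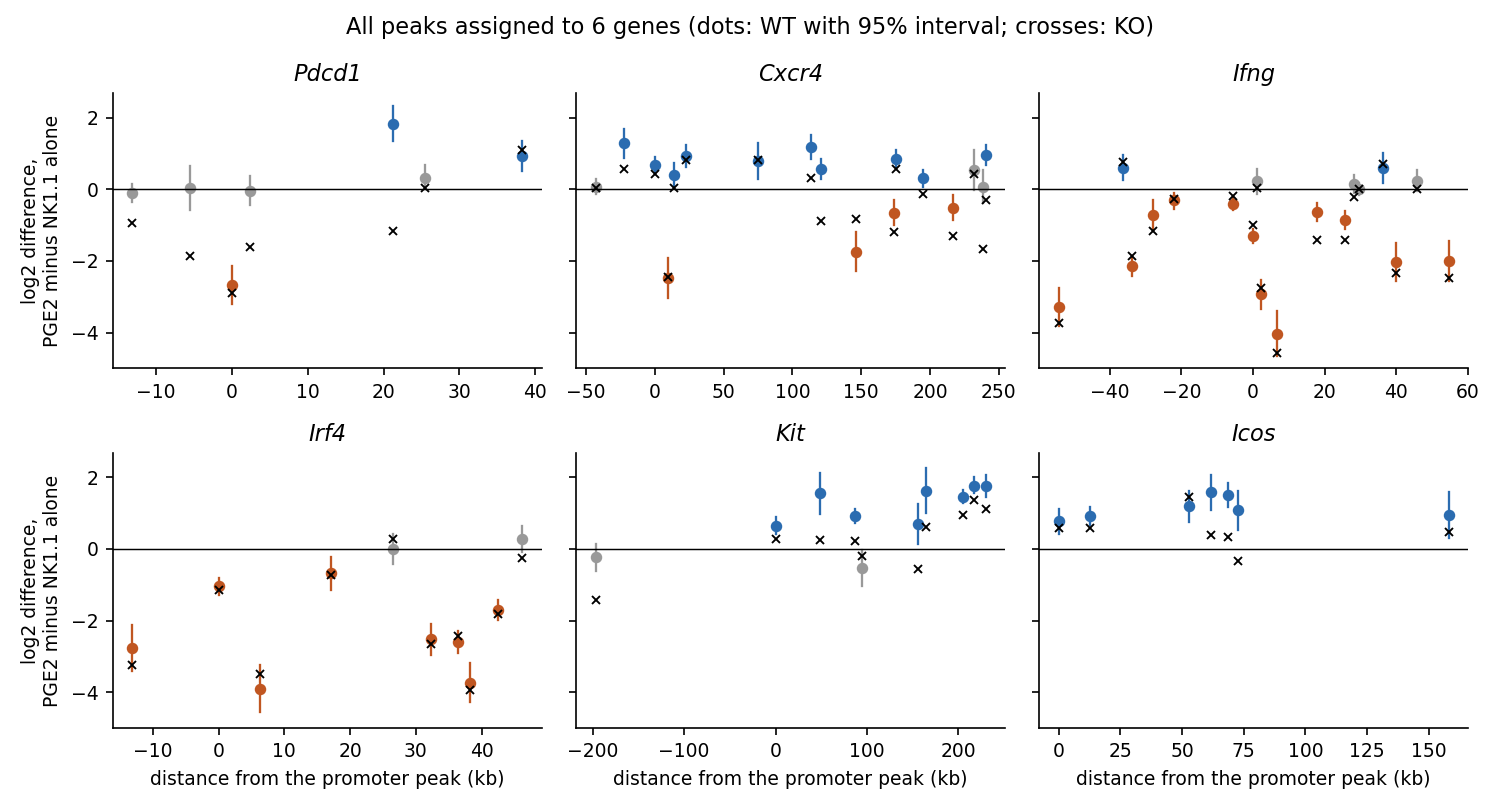
Log2 difference, PGE2 alone minus NK1.1 alone, of every peak assigned to 6 genes against its distance from the promoter peak in kb; dots with bars are WT values with 95% intervals (blue and orange: called; grey: not called) and crosses are KO values. Pdcd1 and Cxcr4 have peaks called on both sides, Irf4 only on the NK1.1 side, and Kit and Icos only on the PGE2 side, while Ifng has 12 and 2.

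At some sites the signals reached the same level. Among peaks where both groups had at least 2 times the rest mean and the 95% interval of their difference lay within 0.5 of 0 on the log2 scale, 69 were found. The 6 with the largest rise were assigned to Arid5a, an RNA-binding protein that stabilises cytokine transcripts, Baiap2, Msmo1, a sterol biosynthesis enzyme, Ccnl1, a cyclin of RNA processing, Tnfaip3 (A20, an inhibitor of NF-kB) and Ninj2. The Ccnl1 promoter peak at chr3:65960175-65960738 had 247, 256 and 243 with PGE2 alone, 257, 225, 252 and 260 with NK1.1 alone and 54.2, 57.3, 62.8 and 62.1 at rest; the difference was 0.00 (SE 0.12). At the intergenic peak assigned to Tnfaip3 at chr10:18998997-19000724, the counts were 231, 245 and 211 against 262, 213, 247 and 233, with a rest mean of 57.1 (difference -0.06, SE 0.18). With both signals together the means were 295 and 292, and neither peak passed the test against either single signal. At 3 of the other 4, both signals together were above PGE2 alone and NK1.1 alone: Arid5a (0.70 and 0.73), Baiap2 (0.57 and 0.65) and Ninj2 (0.44 and 0.34). At Msmo1 they were above NK1.1 alone (0.54, adjusted p = 0.00852 in limma), with a difference from PGE2 alone of 0.42 (adjusted p = 0.108).

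The same comparison in KO cells, in libraries that the WT values do not use, kept most of these differences. At the Ptger2 promoter the KO libraries had 104 ± 16.3 (SD, n = 4) with PGE2 alone and 226 ± 21.7 with NK1.1 alone, below every WT library with the same treatments. In KO, 22395 peaks (58.1%) differed: 11132 (28.9%) were higher with PGE2 and 11263 (29.2%) higher with NK1.1, against 25.4% and 25.8% in WT; these counts were not compared by a test. Of the 9794 WT peaks higher with PGE2, 7528 (76.9%) were called in the same direction in KO and 202 (2.06%) in the opposite one; of the 9946 higher with NK1.1, 8594 (86.4%) and 27 (0.271%). All 1658 peaks at least 4-fold higher with NK1.1 in WT were called in the same direction in KO, with a median of -2.57 in WT and -2.73 in KO. The 69 peaks at least 4-fold higher with PGE2 had a median of 2.19 in WT and 1.38 in KO, and 59 of them (85.5%) were called in the same direction. The sets were picked on their WT values, so their WT medians are a description. At Zfp169, Prim2 and Emb, KO means at rest were 67.1 ± 11.9, 141 ± 9.77 and 265 ± 55.2 (SD, n = 3). With PGE2 alone the KO means were 81.3 ± 18.5, 135 ± 10.2 and 352 ± 93.3 (SD, n = 4). With NK1.1 alone they were 29.8 ± 4.65, 42.3 ± 4.08 and 85.9 ± 16.8. In KO, neither signal was tested against rest.

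The genotype difference was tested as an interaction and was called at 2329 peaks (6.05%). It was positive (more on the PGE2 side in WT) at 1849 peaks (4.8%) and negative at 480 (1.25%). With the replicate number as a block, the counts were 2409 and 764. The negative count was 258 without WT PGE2 replicate 3, 313 without WT NK1.1 replicate 2, 287 without KO NK1.1 replicate 3 and 298 with scaling to promoter medians. It was positive at 34 of the 69 4-fold PGE2 peaks (49.3%) and at 24 of the 1658 4-fold NK1.1 peaks (1.45%), where it was negative at 35 (2.11%). Both sets, and the largest differences named next, were picked on the WT value that enters the interaction, so these counts are a description. Of the 10 largest differences toward PGE2, 9 had a positive interaction: Zfp169 went from 3.24 in WT to 1.40 in KO, Csf2rb2 from 2.64 to 0.18, and Grhl3 from 2.51 to 0.10, whereas Emb kept 2.01 of 2.54 (interaction 0.53, adjusted p = 0.287 in limma). The Tigit promoter went from 0.79 to 0.02 and the leading Pde4d peak from 1.44 to 0.45. By contrast, the promoters of Rcan1 (-3.17 and -3.13), Tagap (-2.85 and -2.85), Il2ra (-1.94 and -1.86) and Ccr2 (1.26 and 1.44) had nearly the same difference in both genotypes.

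**Figure D5:**
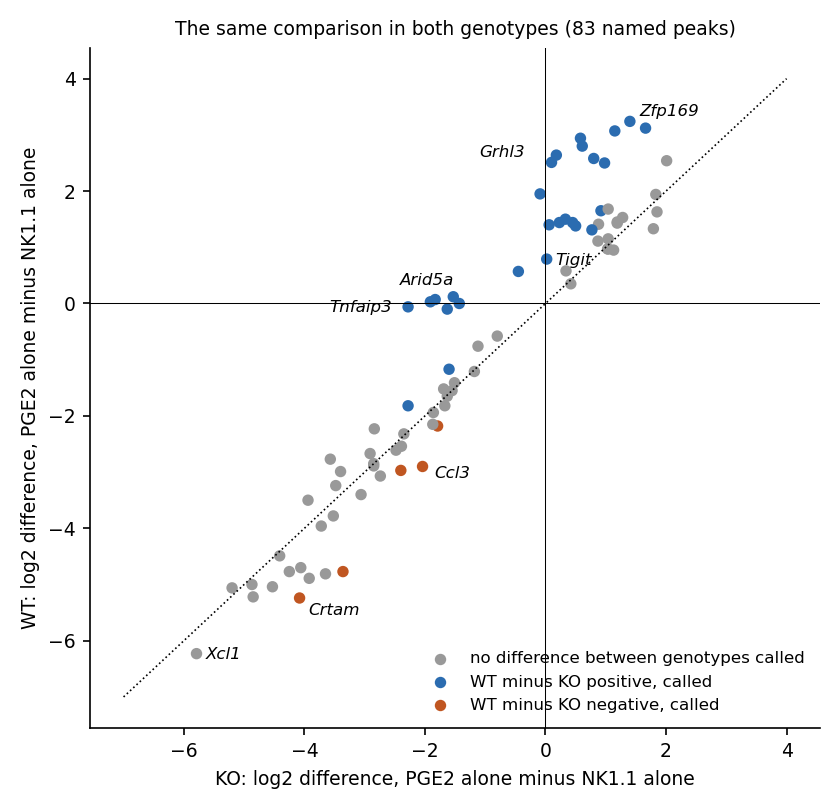
Log2 difference, PGE2 alone minus NK1.1 alone, in WT (vertical) against KO (horizontal) for the 83 named peaks; colours mark peaks whose genotype difference was called, and the dotted line marks equal values. The 6 same-level peaks (Arid5a, Tnfaip3) lie from -0.10 to 0.12 in WT and from -2.28 to -1.43 in KO, and the peaks with the largest PGE2 values (Zfp169, Grhl3) lie above the line.

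All 69 sites where the signals reached the same level in WT were called higher with NK1.1 in KO, beside 29.2% of all tested peaks. The 6 named ones had a positive interaction of 1.44 to 2.22. These sites were picked on WT values that enter the interaction, so the interactions are a description. In KO, the Tnfaip3 site was 53.1 ± 13.7 with PGE2 alone and 256 ± 37.4 with NK1.1 alone, and the Ccnl1 promoter 79.0 ± 9.23 and 215 ± 24.2. At some sites chosen after their values were seen, PGE2 was above NK1.1 in WT and below it in KO, with both calls passing the test. In all, 229 peaks were called in opposite directions in the genotypes. The distal Pdcd1 site, at 1.84 in WT, was -1.16 in KO (interaction 3.0, SE 0.32, adjusted p = 7.25e-08 in limma), with 69.8 ± 32.7 with PGE2 alone and 146 ± 13.5 with NK1.1 alone. Another such site lay 51.2 kb before Nt5e, which encodes the adenosine-producing enzyme CD73. In WT it had 82.5, 61.2 and 84.2 against 47.6, 28.5, 43.6 and 39.9 (0.92, SE 0.26), and in KO it differed by -1.26 (interaction 2.18). Over the locus, 4 of 7 Nt5e peaks were higher with PGE2 in WT and 1 with NK1.1. The latter, an intron peak and the smallest-p peak of this fixed gene, was higher with NK1.1 in both genotypes (-0.58, SE 0.12, in WT and -0.80 in KO). A Cxcr4 peak 121.0 kb from its promoter went from 0.56 to -0.89, and the named Stat3 intron peak from 0.57 to -0.45. The Gzmb promoter was on the NK1.1 side in both, by -0.77 in WT and -1.65 in KO (interaction 0.89, SE 0.13). A larger difference toward NK1.1 in WT than in KO was found at Ccl3 (-2.90 and -2.04), Crtam (-5.24 and -4.08) and the Lag3 promoter (-1.47 and -0.57).

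The libraries that received both signals, which entered neither group, lay nearer PGE2 on one side and between the groups on the other. Places were read from group means on the log2(normalised count + 1) scale. At the 69 peaks at least 4-fold higher with PGE2, the mean with both signals was between the groups and nearer PGE2 at 60 (87.0%), above both at 8 (11.6%) and nearer NK1.1 at 1. At the 1658 peaks at least 4-fold higher with NK1.1, it was nearer PGE2 at 778 (46.9%), nearer NK1.1 at 871 (52.5%) and below both at 9. Nearness depends on the scale. In counts, the medians of the group means at these 1658 peaks were 57.9 with both signals, 21.4 with PGE2 alone and 147.3 with NK1.1 alone. Over all tested peaks, both signals lay between the groups and nearer PGE2 at 36.4% and nearer NK1.1 at 22.7%. Against PGE2 alone, both signals were higher at 4874 peaks (12.7%) and lower at 1465 (3.8%); against NK1.1 alone they differed at 15619 (40.5%), higher at 7767 (20.2%) and lower at 7852 (20.4%), a split that scaling to promoter medians moved to 9660 and 5966. The count of 1465 was 703 without WT PGE2 replicate 3, 936 without WT PGE2 replicate 4, 893 with scaling to promoter medians and 2463 with the replicate number as a block. These comparisons share libraries with that of PGE2 alone and NK1.1 alone, so their counts are only set side by side. The Zfp169 site had 227 ± 14.1 (SD, n = 4) with both signals, against 334 with PGE2 alone, from which it did not pass the test (-0.54, adjusted p = 0.125), and 35.9 with NK1.1 alone. The Xcl1 site had 558, between 33.5 and 2620, and passed the test against each (3.99 above PGE2 alone and -2.23 from NK1.1 alone). At the Tigit promoter both signals gave 1926 and at the distal Pdcd1 site 1223, 918, 736 and 614. Neither passed the test against PGE2 alone (0.10 and 0.57). Ccl1 kept 209 of a mean of 2905 with NK1.1 alone, the Prf1 peak at chr10:61305846-61309038 336 of 709 with rest at 319, and the Mir6390 site 164 of 200.2.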

How the data were processed

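ATAC-seq reads went through Trimmomatic 0.39, Bowtie2 2.4.1 (mm10) and MACS2 2.2.7.1, per the submitters' processing notes, which give no settings. The deposited table holds 1 signal value per peak and library over a single atlas of peaks (237 to 5682 bases wide): the authors' read count divided by a DESeq2 size factor, with the gene and class of each peak as deposited. The sources used here do not say whether reads were shifted for the transposase. In all libraries 100% of values were whole multiples of a step within a tolerance of 0.05 reads (largest deviation 0.0402), so reads in peaks could be recovered (8444350 to 20153816 per library), and each value's precision follows from them for counting error only. No column of other samples was found (0).

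Differences were tested with limma 3.58.1 (R 4.3.3; trend and empirical Bayes) on log2(normalised count + 1) with 8 group means over all 30 libraries, after removal of peaks with a mean under 10 (1 peak), with Benjamini-Hochberg adjustment over 38525 peaks. On the recovered reads, edgeR 4.0.16's quasi-likelihood test called 20033 peaks between PGE2 alone and NK1.1 alone and DESeq2 1.42.0 called 20305, against 19740 with limma. The other alternatives were a pseudocount of 5, no filter or a mean of 50, scaling to total reads, by TMM or to promoter medians, a replicate block, only the groups compared, and each replicate left out. The fitting was tested on simulated data.

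Named peaks are the 10 largest differences each way without overlap (group mean at least 50, 1 per gene), the smallest-p peak of 12 gene lists each way, the 6 same-level peaks with the largest rise, the 5 genes with the most peaks all on one side (each way) or split at 2-fold, and the smallest-p peak of 17 fixed genes. All other peaks and loci named were chosen after their values were seen. The comparison, lists and named genes were chosen with earlier results of these data known. Deviations from the group means of KO PGE2 alone and KO NK1.1 alone correlated at the same replicate number (0.206, 0.167, 0.35 and 0.142). Different numbers also correlated, between replicates 1 and 2 (0.114 and 0.125) and between 3 and 4 (0.142 and 0.182). Correlations of replicates 1 and 2 with 3 and 4 were all negative (-0.09 to -0.252). The data thus do not show that the number pairs single libraries. The blocked value is given where it moves a count. Promoter windows came from RefSeq (GRCm38.p6), in which 14755 of 14768 gene identifiers were found. Some genes among the named peaks and marker lists are counted but not reported here by name.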

Additional observations from a re-analysis of the deposited data

Results flagged for a closer look

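In 17 of 249 groups of 4 libraries at the named peaks, 1 library stood far from the other 3 by Dixon's test; chance gives about 1 in 20 groups. Values are normalised read counts of that library against the range of the others. Among libraries with NK1.1 alone, a high value stood out at Ccl4 in replicate 1 (2177 against 1623 to 1671), Klrb1c in replicate 2 (227.7 against 150.1 to 161.9), Akap13 in replicate 3 (132.4 against 93.7 to 94.87), Rgs16 in replicate 1 (1492 against 1135 to 1193) and 1700064M15Rik in replicate 2 (207.4 against 177 to 182.1). A low value stood out there at Stat4 in replicate 3 (155.4 against 207.4 to 213.5), Pdcd1 in replicate 2 (104.4 against 142.3 to 145.1) and Kdm2b in replicate 4 (490.2 against 578.6 to 596). Among libraries at rest, a low value stood out at E230016M11Rik in replicate 4 (52.55 against 65.11 to 66.74), Tbc1d4 in replicate 2 (19.44 against 29.84 to 31.42), Crtam in replicate 1 (15.7 against 23.56 to 25.08) and Gm33104 in replicate 1 (201 against 252 to 261.2). A high value at rest was found at Sema7a in replicate 4 (26.27 against 5.496 to 8.836) and Dusp22 in replicate 2 (14.58 against 8.836 to 9.554). It was also found in replicate 4 at another Ccl1 peak than the one described above (27.47 against 13.61 to 14.73). Among libraries with both signals, a high value stood out at Rnf125 in replicate 1 (311.2 against 218.7 to 225.2) and Nrp2 in replicate 1 (125.3 against 73.63 to 77.45). The groups with PGE2 alone hold 3 libraries and were not examined in this way.

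At 32 of the 83 named peaks the difference between PGE2 alone and NK1.1 alone differed between WT and KO, as tested by the interaction in limma at an adjusted p under 0.05. Of these, 31 are given, as WT minus KO on the log2 scale. Most named peaks were picked on WT values that enter the interaction, so their count is a description. The largest differences toward PGE2 had Zfp169 (1.84, from 3.24 in WT and 1.40 in KO), Prim2 (1.47, from 3.12 in WT and 1.66 in KO), Rnf125 (1.92, from 3.07 in WT and 1.15 in KO), Uchl5 (2.37, from 2.94 in WT and 0.58 in KO), E230016M11Rik (2.19, from 2.80 in WT and 0.61 in KO), Csf2rb2 (2.46, from 2.64 in WT and 0.18 in KO), Nrp2 (1.78, from 2.58 in WT and 0.80 in KO), Grhl3 (2.41, from 2.51 in WT and 0.10 in KO) and Tbc1d4 (1.52, from 2.50 in WT and 0.98 in KO). Other sites higher with PGE2 in WT had Pde4d (1.00, from 1.44 in WT and 0.45 in KO), Tnfsf11 (2.04, from 1.95 in WT and -0.09 in KO), Lyst (0.88, from 1.38 in WT and 0.50 in KO), Klrb1c (0.73, from 1.65 in WT and 0.92 in KO), Tigit (0.77, from 0.79 in WT and 0.02 in KO), Rptor (1.22, from 1.44 in WT and 0.23 in KO), Stat3 (1.02, from 0.57 in WT and -0.45 in KO), Icos (1.17, from 1.5 in WT and 0.33 in KO), Gm27162 (1.34, from 1.40 in WT and 0.06 in KO) and Fyn (0.54, from 1.31 in WT and 0.77 in KO). The same-level sites had Arid5a (1.94, from 0.03 in WT and -1.91 in KO), Baiap2 (1.91, from 0.07 in WT and -1.83 in KO), Msmo1 (1.65, from 0.12 in WT and -1.53 in KO), Ccnl1 (1.44, from 0.00 in WT and -1.43 in KO), Tnfaip3 (2.22, from -0.06 in WT and -2.28 in KO) and Ninj2 (1.53, from -0.10 in WT and -1.63 in KO). Sites higher with NK1.1 and further so in KO had Cish (0.45, from -1.82 in WT and -2.28 in KO) and Capg (0.43, from -1.17 in WT and -1.60 in KO). Sites higher with NK1.1 and further so in WT had Crtam (-1.15, from -5.24 in WT and -4.08 in KO), Ccl4 (-0.57, from -2.97 in WT and -2.40 in KO), Cx3cr1 (-0.39, from -2.18 in WT and -1.79 in KO) and Ccl3 (-0.86, from -2.90 in WT and -2.04 in KO). Ccl3, Ccl4 and Klrb1c belong to families with similar copies, so that their reads may be shared.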

How the results depend on the processing

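Over the counts of called peaks in all comparisons, 380 of 390 values under an alternative stayed within 1.5 times the reported count and 10 did not; no named peak changed direction. For PGE2 alone against NK1.1 alone, the alternatives other than left-out libraries gave 8977 to 10968 peaks higher with PGE2 and 8881 to 10362 higher with NK1.1, and left-out libraries 8503 to 9407 and 9160 to 9789. The negative genotype difference (480 peaks) was 298 with promoter-median scaling, 764 with the replicate block and 258 to 583 with 1 library left out, with 258 without WT PGE2 alone replicate 3, 287 without KO NK1.1 alone replicate 3 and 313 without WT NK1.1 alone replicate 2. Peaks lower with PGE2 alone than at rest (1554) numbered 826 to 1365 with 1 library left out, lowest without WT PGE2 alone replicate 3. Peaks lower with both signals than with PGE2 alone (1465) numbered 893 with promoter-median scaling, 2463 with the replicate block and 703 to 1256 with 1 library left out, with 703 without WT PGE2 alone replicate 3 and 936 without replicate 4. The cause of these moves was not tested. The WT replicate numbers share only a number (correlations of deviations 0.029, 0.046 and -0.005); with the replicate block, 10474 and 10362 peaks were called in the 2 directions between PGE2 alone and NK1.1 alone. Of 1407 values of the 83 named peaks under alternatives, 4 lost the call, all at the Crem site. Of 646 list counts, 11 moved by over 1.5 times, all of the B and T cell marker lists. No scaling moved the median of all peaks by more than 0.082. Depth limits the low sites: several lie under 50 normalised reads in the lower group.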
